A study of Rattus norvegicus with 18 samples.

Results

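The data described here are the kidney transcript counts of 8 genes of this system: the transcription factor Foxi1, the anion exchangers Slc4a1, Slc26a4 and Slc4a9, the proton pump subunits Atp6v1b1, Atp6v1g3 and Atp6v0d2, and the carbonic anhydrase Car2. They were chosen by their mouse Ensembl identifiers, 8 of 55335 in the deposited count table, and all 8 were among the 19233 genes with enough counts to be tested.

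Intercalated cells of the connecting tubule and collecting duct set the final acidity of the urine. Type A cells pump protons into the urine with a vacuolar proton pump on the side of the lumen and return bicarbonate to the blood through the exchanger Slc4a1. Type B cells secrete bicarbonate through the chloride-bicarbonate exchanger Slc26a4 (pendrin). Cytosolic carbonic anhydrase supplies protons and bicarbonate to either type, and in mice the forkhead transcription factor Foxi1 is required for these cells to form.

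Polyadenylated kidney RNA was sequenced from 18 animals labelled as rats, 6 per group. The Treat group had the diabetic nephropathy model and then oral TSK, an agent whose abbreviation the labels do not expand, at 500 mg/kg daily over 4 weeks. The DN group had the same model without TSK, made with high-fat feeding plus an STZ injection, and no vehicle gavage is stated for it. The Ctrl group had ordinary feed and solvent gavage. The labels give no strain, sex, age or genotype.

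Total counts were 22040987 to 28135824 in Treat, 25505257 to 35275498 in DN and 26312358 to 34140706 in Ctrl. Each of the 8 genes had between 381 and 15015 counts in every library. Values are given as CPM, the count relative to the TMM-scaled library total. They are not divided by transcript length, so levels of different genes are not compared. The identifiers are of mouse genes while the labels give rats, and whether the animals were rats or mice was not tested. If they were rats, a mouse reference may capture each gene to a different degree. The count table carries no gene names, and other genes, including markers of principal cells, red blood cells and osteoclasts, could not be named. The tissue label was therefore not checked against other markers, and the part of other cell types in the results was not tested. In bulk tissue, fewer intercalated cells and less RNA per cell cannot be told apart.

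Control library 4 stood apart from the other controls. The identifier ENSMUSG00000086503 had 18 to 30 counts in Treat, 12 to 41 in DN and 23 in control library 4, whereas each of the remaining 5 controls had 38313 to 52784. For 7 of the 8 genes control library 4 was below all other controls, and for 4 of them (Slc4a1, Slc26a4, Slc4a9 and Atp6v0d2) it lay within the range of the DN libraries. The difference of either DN or Treat from the other 5 controls cannot be told apart from the difference that this identifier marks. Whether it marks a difference between the animals, whose sex the labels do not give, was not tested. Where it matters, comparisons with Ctrl are also given without control library 4, to show how far that library moves them. The controls then left all differ from DN and Treat in this identifier, so this omission cannot separate the groups from what it marks. The comparisons are also given in a fit that has the division of the controls as a term, called the divided fit below. The divided fit leaves control library 4 as the only control and assumes that it varies like the other libraries. It was added after the data had been seen. Treat and DN were alike in this identifier. In a principal component analysis, treated library 1 also stood apart from its group on the second component, and leaving it out changed no call of the 8 genes in Treat versus DN.

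Sequence upstream of these genes was available from RefSeq for 5 of the 8 by symbol, on the rat build GRCr8. The sequences of Atp6v1g3 and Atp6v1b1 are shown because both genes were lower in DN than in Ctrl and held the core TGTTTA. Forkhead proteins, the family of Foxi1, bind this core. The 2 sequences were picked for these traits, so they are no test of Foxi1. Relative to Ctrl, the log2 fold changes in DN were -0.36 for Atp6v1g3, -0.48 for Atp6v1b1 and 0.40 for Foxi1. Whether Foxi1 acts on these genes was not tested. The core was searched on both strands of the 250 bases before the start of each gene. Atp6v1g3 held 2 matches, which do not overlap, and Atp6v1b1 held 1, in capitals below. The windows of Slc26a4, Slc4a9 and Foxi1 held none. Slc4a1, Atp6v0d2 and Car2 were not in the table. Among all 33469 rat promoters of this length 12.1% had at least 1 match and 1.33% had 2 or more. These are matches of letters, and binding was not measured.
Atp6v1g3, chr13:52362082-52362331, plus strand: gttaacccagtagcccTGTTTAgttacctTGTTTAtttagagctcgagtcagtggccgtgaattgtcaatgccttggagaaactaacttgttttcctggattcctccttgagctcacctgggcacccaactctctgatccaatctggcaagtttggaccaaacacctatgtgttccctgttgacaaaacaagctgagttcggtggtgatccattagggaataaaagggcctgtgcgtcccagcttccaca
Atp6v1b1, chr4:117781194-117781443, plus strand: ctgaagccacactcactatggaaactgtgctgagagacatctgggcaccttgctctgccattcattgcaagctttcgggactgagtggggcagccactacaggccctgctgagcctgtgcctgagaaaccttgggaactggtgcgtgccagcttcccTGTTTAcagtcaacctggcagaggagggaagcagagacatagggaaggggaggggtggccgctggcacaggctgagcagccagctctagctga
The matches of Atp6v1g3 began 234 and 221 bases before the start, and that of Atp6v1b1 began 93 bases before it.

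The 8 genes did not share 1 pattern over the groups. The 3 proton pump subunits were lower in DN than in Ctrl and had nearly the same mean in Treat as in Ctrl. For Atp6v1g3 and Atp6v0d2 that Ctrl mean includes control library 4, at 38.95 and 34.17 CPM, below all treated libraries. The other 5 controls averaged 60.8 and 51.3 CPM, against 56.05 and 48.09 CPM in Treat. In the divided fit the DN difference was 0.19 for Atp6v1g3, 0.10 for Atp6v0d2 and -0.24 for Atp6v1b1. Foxi1 had its highest mean in Treat and its lowest in Ctrl, and Car2 had the opposite order. Of the exchangers, Slc26a4 had nearly the same mean in Treat and DN, below Ctrl. The mean of Slc4a1 in Treat lay between those of DN and Ctrl, and the mean of Slc4a9 was highest in Treat.

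**Figure D1:**
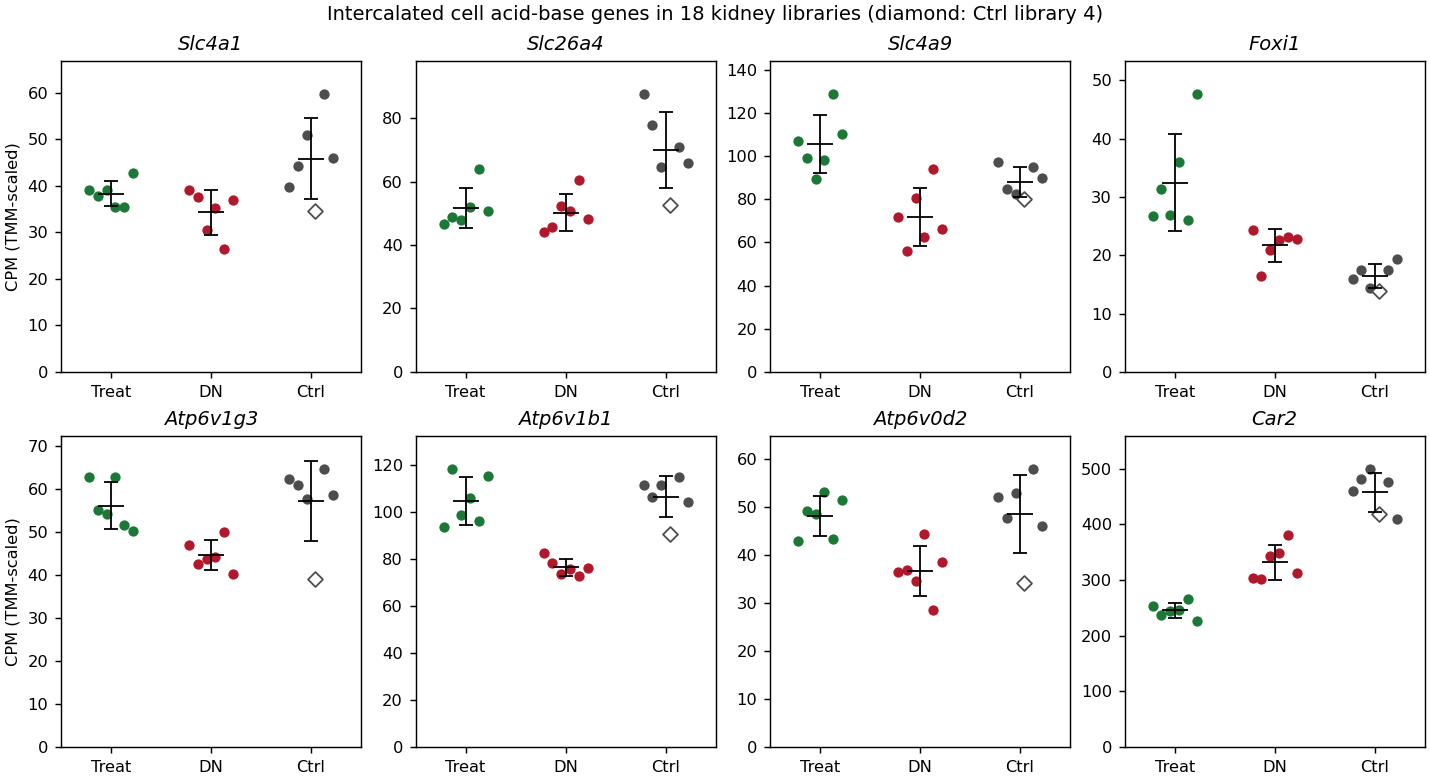
Each panel plots 1 gene, with the group on the horizontal axis and TMM-scaled CPM on the vertical axis, 1 point per library, and the mean with its SD (n = 6 per group). Control library 4 is the open diamond. Car2 shows 3 levels that do not overlap, with Treat lowest. The means of Foxi1 have the opposite order, and its DN and Ctrl libraries overlap.

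Foxi1 (ENSMUSG00000047861) was the only one of the 8 genes with a higher mean in DN than in Ctrl. Its lowest, median and highest values were 26.0, 29.2 and 47.6 CPM in Treat, 16.4, 22.7 and 24.3 CPM in DN and 13.9, 16.7 and 19.4 CPM in Ctrl. All treated libraries were above all DN and control libraries, and 5 of the 6 DN libraries were above all controls. Relative to Ctrl, Foxi1 rose in the DN kidneys (log2 fold change 0.40, SE 0.14, adjusted p = 0.0367 by edgeR's quasi-likelihood test with Benjamini-Hochberg adjustment over all genes tested, as for every adjusted p of a single gene below). Foxi1 was also higher in treated than in DN kidneys, by 0.58 on the log2 scale (SE 0.14, adjusted p = 0.0472), and it stood 1.97-fold higher in Treat than in Ctrl (adjusted p = 3.27e-05).
The difference between Treat and Ctrl was called in each of 28 alternative settings, with log2 fold changes of 0.84 to 1.22. The other 2 differences were near the threshold. The call for DN versus Ctrl was lost in 12 of 28 settings, among them the fit without control library 4 (log2 fold change 0.35, adjusted p = 0.0756) and the divided fit (0.64, adjusted p = 0.179). The call for Treat versus DN was lost in 18 of 27 settings, 15 of them the omission of a single library, any but control 4, Treat 1 and Treat 5 (adjusted p = 0.105 at most). Without treated library 6, which had the highest Foxi1 value, the log2 fold change between Treat and DN was 0.44 (adjusted p = 0.0865).

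Slc4a1 (ENSMUSG00000006574) is the chloride-bicarbonate exchanger of the basolateral side of type A cells, and a longer form is the band 3 protein of red blood cells. Slc4a1 had lowest, median and highest values of 35.4, 38.4 and 42.7 CPM in Treat, 26.3, 36.0 and 39.1 CPM in DN and 34.6, 45.0 and 59.6 CPM in Ctrl. Its groups overlapped, and 5 of the 6 controls were above all DN libraries. The gene was 0.748-fold as abundant in DN as in Ctrl (log2 fold change -0.42, SE 0.12, adjusted p = 0.0102). The difference was -0.49 without control library 4 (adjusted p = 0.00262). It was -0.015 in the divided fit and was not called there (adjusted p = 0.976). Between Treat and DN the log2 difference was 0.16, with a 95% interval of -0.07 to 0.39 (adjusted p = 0.531). Between Treat and Ctrl it was -0.26 (adjusted p = 0.0756), and without control library 4 it was -0.33 and was called (adjusted p = 0.0205). Whether red blood cells contributed to these counts was not tested.

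Slc26a4 (ENSMUSG00000020651), the bicarbonate-secreting exchanger of the luminal side of type B cells, had lower counts in either model group than in Ctrl. Its lowest, median and highest values were 46.8, 49.9 and 63.9 CPM in Treat, 44.1, 49.5 and 60.4 CPM in DN and 52.6, 68.4 and 87.5 CPM in Ctrl. The 5 controls other than library 4 were above all libraries of DN and Treat, and DN and Treat covered nearly the same range. Relative to Ctrl, Slc26a4 fell in DN kidneys (log2 fold change -0.48, SE 0.11, adjusted p = 0.00319) and in treated kidneys (-0.43, SE 0.11, adjusted p = 0.00401). Treat and DN were not distinguishable, with a log2 difference of 0.04 and a 95% interval of -0.17 to 0.26 (adjusted p = 0.89). The calls against Ctrl were lost in 1 setting each, the divided fit (-0.07, adjusted p = 0.869 for DN and -0.025, adjusted p = 0.948 for Treat). Control library 4, at 52.6 CPM, was above 5 of 6 DN libraries and above 5 of 6 treated libraries.

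Slc4a9 (ENSMUSG00000024485), another exchanger of the Slc4 family, is found on the basolateral side of type B cells in mice. Its lowest, median and highest values were 89.7, 103.1 and 128.7 CPM in Treat, 56.0, 68.9 and 93.9 CPM in DN and 80.1, 87.2 and 97.1 CPM in Ctrl. The highest DN library, library 5, was above the lowest treated library, and the other 5 DN libraries were below all treated ones. Slc4a9 rose in treated kidneys to 1.47-fold the DN level (log2 fold change 0.56, SE 0.11, adjusted p = 0.0173), and this held in 25 of 27 settings.
The call was lost with only the 12 libraries compared (0.56, adjusted p = 0.0699) and without DN library 4 (0.52, adjusted p = 0.0554). Relative to Ctrl, Slc4a9 was lower in DN by a margin near the threshold (log2 fold change -0.30, adjusted p = 0.0482), and this call was lost in 16 of 28 settings, 12 of them the omission of 1 library. Without DN library 2, the lowest, the value was -0.24 (adjusted p = 0.106). Between Treat and Ctrl the log2 difference was 0.26 (adjusted p = 0.0653), with 5 of 6 treated libraries above all controls.

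Slc4a9 and Slc26a4, which are markers of the same cell type, had different changes in Treat relative to DN. The difference was tested within libraries, where the difference of their log2 CPM does not depend on how the libraries are scaled. The difference of Slc4a9 minus Slc26a4 was 1.02 ± 0.11 in Treat, 0.50 ± 0.18 in DN and 0.35 ± 0.19 in Ctrl (SD, n = 6 each). It was larger in all treated libraries (0.90 to 1.19) than in all DN (0.29 to 0.70) and control libraries (0.12 to 0.61). The two-sided exact permutation test gave p = 0.00216 for Treat against DN and likewise against Ctrl, the smallest value that 6 against 6 libraries can give (adjusted p = 0.00487 over 9 such tests). DN and Ctrl differed by 0.15 (exact p = 0.177, adjusted 0.266). The type A exchanger Slc4a1 minus Slc26a4 averaged -0.43 ± 0.23 in Treat, -0.56 ± 0.38 in DN and -0.61 ± 0.33 in Ctrl. For this pair of genes no 2 groups differed beyond the spread, with exact permutation p = 0.519 between Treat and DN, 0.784 between DN and Ctrl, and 0.297 between Treat and Ctrl. Slc4a1 minus Foxi1 averaged 0.27 ± 0.30 in Treat, 0.65 ± 0.32 in DN and 1.46 ± 0.26 in Ctrl, and was below all controls in each DN and treated library (exact p = 0.00216 for either group, adjusted p = 0.00487). Treat and DN differed by -0.39 in this measure (exact p = 0.0541, adjusted 0.0974), and by -0.48 without DN library 5 (adjusted exact p = 0.0195). That was the only 1 of 13 alternative settings in which this difference passed. Omissions of 1 library gave -0.48 to -0.28, with an adjusted exact p of 0.203 at most.

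**Figure D2:**
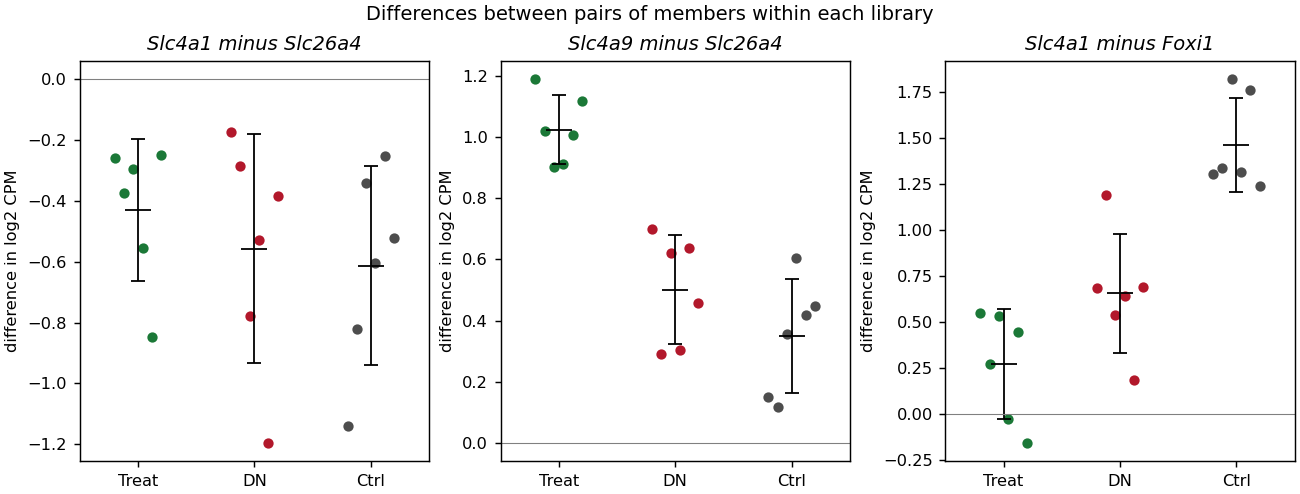
The vertical axis gives the difference in log2 CPM between 2 genes in the same library, 1 point per library, with the mean and SD of each group (n = 6). For Slc4a9 minus Slc26a4 the treated libraries lie at 0.90 to 1.19, above all DN and control libraries, while Slc4a1 minus Slc26a4 overlaps between all groups.

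The vacuolar proton pump consists of a cytosolic sector, which splits ATP, and a membrane sector, through which protons pass. Atp6v1b1 (ENSMUSG00000006269) encodes the B1 subunit of the cytosolic sector, the form found in intercalated cells. Its inherited loss causes distal renal tubular acidosis in humans. Atp6v1b1 had lowest, median and highest values of 93.6, 102.4 and 118.2 CPM in Treat, 72.9, 76.0 and 82.5 CPM in DN and 90.7, 109.0 and 115.2 CPM in Ctrl. Every DN library was below every treated and every control library, control library 4 included, and Treat and Ctrl covered nearly the same range. Relative to Ctrl, Atp6v1b1 fell in DN kidneys to 0.718-fold (log2 fold change -0.48, SE 0.07, adjusted p = 9.18e-05). In treated kidneys it rose to 1.37-fold the DN level, or by 0.45 on the log2 scale (SE 0.07, adjusted p = 0.00582), and this held in each of 27 alternative settings (0.41 to 0.58). Treat and Ctrl were not distinguishable, with a log2 difference of -0.03 and a 95% interval of -0.17 to 0.12 (adjusted p = 0.792). In the divided fit the DN difference was -0.24 and was not called (adjusted p = 0.252).

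Atp6v1g3 (ENSMUSG00000026394) encodes the G3 subunit, a part of the stalk of the cytosolic sector. It stood at 50.2, 54.6 and 62.8 CPM (lowest, median and highest) in Treat, 40.1, 43.9 and 49.9 CPM in DN and 38.95, 59.7 and 64.5 CPM in Ctrl. All treated libraries were above all DN libraries, and so were all controls except library 4, which was the lowest of all 18. Relative to Ctrl the gene fell in DN kidneys (log2 fold change -0.36, SE 0.10, adjusted p = 0.0119), and without control library 4 by 0.45 (adjusted p = 0.000226). The direction was reversed in the divided fit (0.19, adjusted p = 0.429), whose only control was below every DN library. Between Treat and DN the log2 fold change was 0.33 (SE 0.10), which did not pass the threshold over all genes (adjusted p = 0.111) although the libraries did not overlap. Without control library 4, which is in neither of these groups but in the common fit, it was 0.33 and did pass (adjusted p = 0.0247, over 19516 genes). Treat and Ctrl differed by -0.028, with a 95% interval of -0.23 to 0.17 (adjusted p = 0.844).

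Atp6v0d2 (ENSMUSG00000028238) encodes the d2 subunit of the membrane sector, which is also abundant in osteoclasts. It had lowest, median and highest values of 42.9, 48.9 and 53.1 CPM in Treat, 28.6, 36.8 and 44.4 CPM in DN and 34.2, 49.9 and 57.8 CPM in Ctrl. Of the treated libraries 4 were above all DN libraries, and all 6 were above the DN median. Compared with Ctrl the gene fell in DN kidneys (log2 fold change -0.40, SE 0.11, adjusted p = 0.0111; -0.49 without control library 4, adjusted p = 0.00108), and in the divided fit the value was 0.10 (adjusted p = 0.784). For Treat versus DN it was 0.39 (SE 0.11), not called with all libraries (adjusted p = 0.0888) and called without control library 4 (0.39, adjusted p = 0.0396). Treat and Ctrl differed by -0.011, with a 95% interval of -0.23 to 0.21 (adjusted p = 0.948).

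Car2 (ENSMUSG00000027562) encodes the cytosolic carbonic anhydrase, which hydrates carbon dioxide to bicarbonate and a proton. It is not particular to intercalated cells, since other tubule segments and red blood cells contain it too. Its lowest, median and highest values were 226.9, 245.3 and 265.0 CPM in Treat, 301.0, 327.3 and 380.5 CPM in DN and 410.1, 467.2 and 498.5 CPM in Ctrl. The 3 groups did not overlap, and control library 4, at 419.0 CPM, was within the range of the other controls. Relative to Ctrl, Car2 fell in DN kidneys to 0.725-fold (log2 fold change -0.46, SE 0.08, adjusted p = 0.000156). In treated kidneys it was lower again, at 0.74-fold the DN level (log2 fold change -0.43, SE 0.08, adjusted p = 0.00789), and this held in each of 27 settings (-0.46 to -0.30). Treat relative to Ctrl gave -0.90 (SE 0.08, adjusted p = 1e-07), which held in each of 28 settings, also in the divided fit (-0.77, adjusted p = 0.00166). The call for DN versus Ctrl was lost in the divided fit (-0.34, adjusted p = 0.15).

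**Figure D3:**
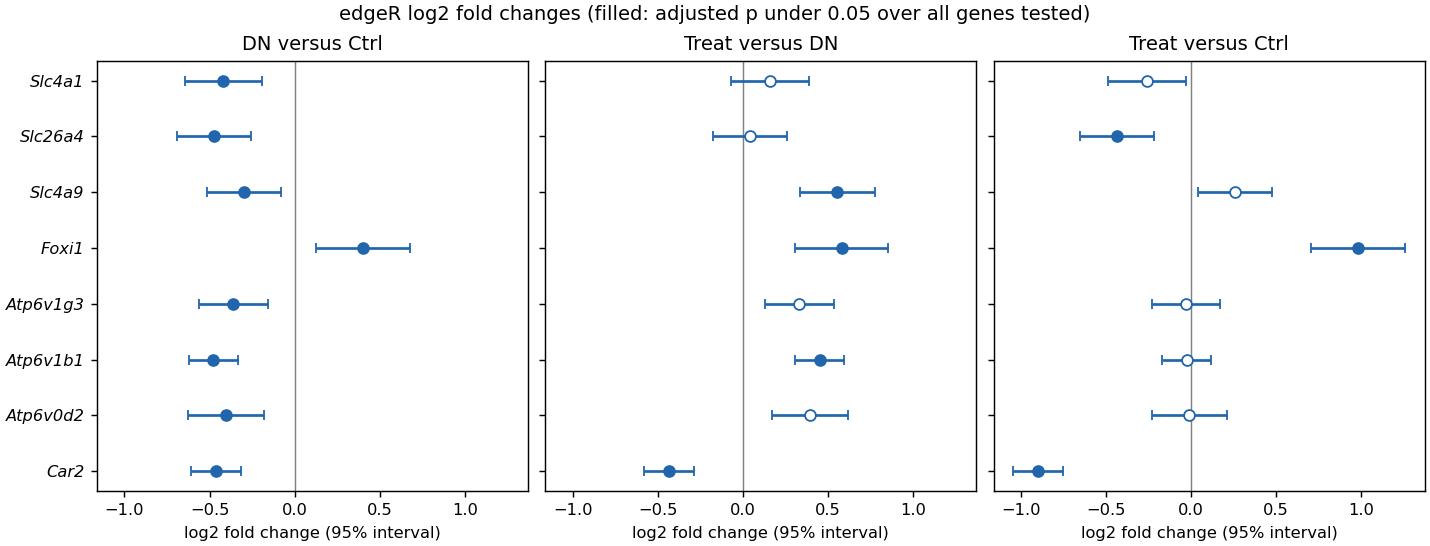
Log2 fold changes from edgeR with 95% intervals are on the horizontal axis, with 1 gene per row and 1 comparison per panel. Filled points have an adjusted p under 0.05 over all genes tested. In DN versus Ctrl all points but that of Foxi1 lie below 0, and in Treat versus DN all but that of Car2 lie above 0.

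Counted over the 8 genes, DN versus Ctrl had 7 lower, 1 higher and 0 not called, with a median log2 fold change of -0.41. Over all 19233 genes tested, 32.2% were called, 15.3% lower and 16.9% higher, with a median of 0.0079. DN and Ctrl libraries did not overlap for 2 of the 8 genes, against 16.2% of all genes. Without control library 4, 7 of the 8 were called lower and 0 higher, with a median of -0.49, and 31.2% of all genes were called (14.3% lower and 16.9% higher). In the divided fit edgeR called 0 of the 8, of which 2 (Foxi1 and Car2) had an unadjusted p under 0.05, with a median of -0.041. It called 5.13% of all genes, 2.34% higher and 2.78% lower. DESeq2, fitted without that term, called 7 of the 8 lower and 1 higher, and 34.9% of all genes (17.1% lower and 17.8% higher). Control library 4 was above every DN library for Atp6v1b1 and Car2, within their range for 4 genes, and below every DN library for Foxi1 and Atp6v1g3.

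In Treat versus DN, 3 of the 8 were called higher (Foxi1, Slc4a9 and Atp6v1b1), 1 lower (Car2) and 4 neither, with a median of 0.36. Over all genes 1.39% were called, 0.536% higher and 0.858% lower, with a median of -0.0051. Treat and DN libraries did not overlap for 4 of the 8 (Foxi1, Atp6v1g3, Atp6v1b1 and Car2), against 1.8% of all genes. Without control library 4, 5 were called higher and 1 lower, with 1.62% of all genes called (0.646% higher and 0.979% lower). DESeq2 with all libraries also called 5 of the 8 higher and 1 lower, and 4.15% of all genes (1.97% higher and 2.18% lower). Without DN library 4, 1 of the 8 was called higher and 1 lower, with 0.498% of all genes called (0.139% higher and 0.36% lower). With only the 12 libraries compared the members' counts were the same, with 0.264% of all genes called higher and 0.361% lower. Scaling by library totals instead of TMM factors moved the median of all genes by 0.132 on the log2 scale, to 0.127. With these totals 5 of the 8 were called higher and 1 lower, and 4.03% of all genes were called (3.4% higher and 0.629% lower). This comparison shares the DN libraries with DN versus Ctrl, so the signs of the 2 comparisons are not independent.

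In Treat versus Ctrl, 1 of the 8 was called higher (Foxi1), 2 lower (Slc26a4 and Car2) and 5 neither, with a median of -0.027. Over all genes 44.9% were called, 23% higher and 21.9% lower, with a median of 0.023, so that the share of the 8 genes called was no larger than that of all genes. Libraries of Treat and Ctrl did not overlap for 2 of the 8, Foxi1 and Car2, against 24.7% of all genes. Without control library 4, Slc4a1 was called lower as well, with 44.3% of all genes called (23.1% higher and 21.2% lower). In the divided fit 2 were called higher, Foxi1 (1.22, adjusted p = 0.0139) and Atp6v1g3 (0.53, adjusted p = 0.0255), and Car2 was called lower. In that fit 9.68% of all genes were called, 3.9% higher and 5.78% lower. All 6 treated libraries were above control library 4 for 6 of the 8 genes, all except Slc26a4 and Car2.

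Animals of 1 group also differed among themselves, and some of the genes varied together. Across all 18 libraries, as deviations from the mean log2 CPM of each group, Slc4a1 varied with the pump subunits Atp6v0d2 (Pearson r = 0.728, permutation p = 0.00523, adjusted 0.0407 over 28 pairs; Spearman rho = 0.527, permutation p = 0.0436) and Atp6v1b1 (r = 0.594, permutation p = 0.00581, adjusted 0.0407; rho = 0.523, permutation p = 0.0201). Atp6v1b1 and Atp6v0d2 varied together (r = 0.712, permutation p = 0.00128, adjusted 0.0179; rho = 0.686, permutation p = 0.00285). The type B exchangers Slc26a4 and Slc4a9 did so as well (r = 0.66, permutation p = 0.00126, adjusted 0.0179; rho = 0.631, permutation p = 0.00867). These were the 4 of 28 pairs with an adjusted p under 0.05 for Pearson's r, and 0 pairs had one for Spearman's rho. With the 2 libraries farthest from the median of the first gene left out, r was 0.429, 0.408, 0.641 and 0.686 for these 4 pairs in the order given. Without control library 4 alone it was 0.603, 0.429, 0.546 and 0.679. In Treat, DN and Ctrl taken separately, r of Slc4a1 was 0.166, 0.743 and 0.822 with Atp6v0d2, and 0.323, 0.842 and 0.78 with Atp6v1b1. For Atp6v1b1 and Atp6v0d2 it was 0.736, 0.372 and 0.997, and for Slc26a4 and Slc4a9 it was 0.785, 0.763 and 0.731. Type A and type B exchangers did not vary together, with r = -0.223 for Slc4a1 and Slc26a4, permutation p = 0.469, and -0.722 without control library 4.

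Set against 11811 other genes with a mean of at least 5 CPM, ranked by this r, Atp6v0d2 came at rank 36 in likeness to Slc4a1, and Slc4a1 at rank 101 in likeness to Atp6v0d2. Atp6v0d2 came at rank 75 for Atp6v1b1, and Atp6v1b1 at rank 131 for Atp6v0d2. Slc4a9 came at rank 139 for Slc26a4, and Slc26a4 at rank 456 for Slc4a9. For Slc4a1 and Atp6v1b1, Atp6v1b1 came at rank 200 for Slc4a1 and Slc4a1 at rank 463 for Atp6v1b1. For Car2, Slc26a4 came at rank 133, and Car2 came at rank 208 for Slc26a4. These pairs were picked as the ones with the highest r, and 21 of all 28 pairs had a positive r. Among the other pairs, Slc26a4 came at rank 8754 and Slc4a9 at rank 9948 for Slc4a1. For Foxi1, Atp6v1b1 came at rank 344 and Car2 at rank 9389. The ranks are descriptions, and the deviations share the scaling of each library.

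Slc4a1 and Slc26a4 varied in opposite directions in the DN group. DN library 5 had the lowest Slc4a1 (26.3 CPM) and the highest Slc26a4 (60.4 CPM) of its group, and DN library 1 the highest Slc4a1 (39.1 CPM) and the lowest Slc26a4 (44.1 CPM). Over the 6 DN libraries r was -0.966 and rho -1.0 for this pair (exact permutation p = 0.00139 and 0.00278, adjusted 0.117 and 0.0778 over 84 tests), and r was -0.983 without DN libraries 3 and 5. In Treat r was -0.548, and -0.971 without libraries 4 and 6, and in Ctrl it was 0.225, and -0.924 without libraries 4 and 5. The libraries left out were the 2 farthest from the group's median of Slc4a1. With so few libraries remaining, r was unstable. The same omission moved r of Slc4a1 with Atp6v0d2 in DN from 0.743 to -0.917. It also moved r of Slc4a1 with Atp6v1g3 in Ctrl from 0.705 to -0.943. Car2 varied with Slc26a4 in DN (r = 0.962, exact permutation p = 0.00556, adjusted 0.156; rho = 0.886, exact permutation p = 0.0333). Of the 84 tests 0 had an adjusted p under 0.05. In Ctrl 27 of 28 pairs were positive, with control library 4 low in 7 of the 8 genes, against 10 of 28 in Treat and 13 of 28 in DN.

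**Figure D4:**
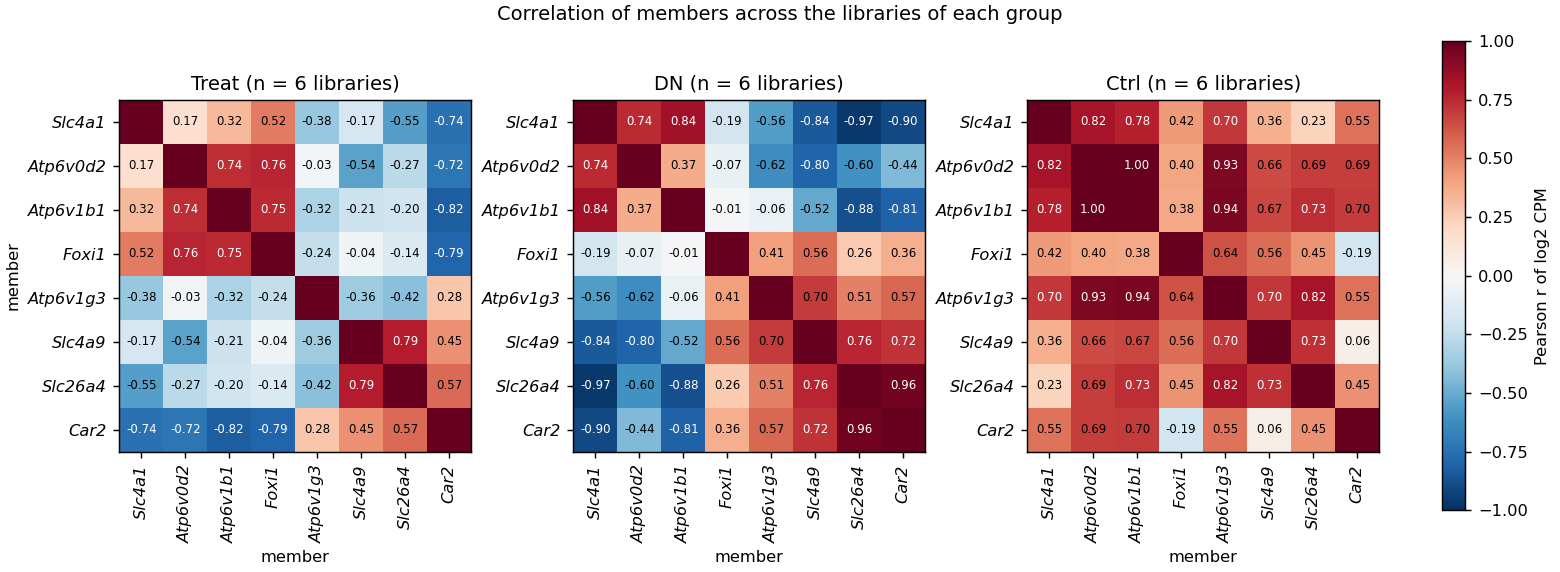
Each panel gives Pearson's r of log2 CPM between all pairs of the 8 genes (rows and columns) across the 6 libraries of 1 group, in numbers and in colour (red positive, blue negative). In DN, Slc4a1 has r = -0.966 with Slc26a4, and in Ctrl nearly all pairs are positive.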

How the data were processed

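The authors' deposited table holds whole-number counts for mouse Ensembl identifiers, 1 column per library, not normalized. Per the labels' protocols, polyadenylated RNA was extracted from kidney with a column kit and made into libraries with a SMARTER mRNA kit. GRCm38 and mm10, names of 1 mouse build, are listed in the submitters' processing notes. For aligner, counter, annotation and strand, nothing is given in the sources used here. Each column name matched the library name of 1 sample, whose title gave its group.

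Under R 4.3.3, edgeR 4.0.16 was run on the counts (filterByExpr, TMM, all 18 libraries in 1 fit with a coefficient per group, glmQLFit and glmQLFTest, Benjamini-Hochberg adjustment over 19233 genes, threshold 0.05). The script was tested on simulated data. SE were derived from the F statistics, and 95% intervals are 1.96 SE. Log2 CPM used a prior count of 2. No other identifier had counts within 3% of a member's in every library. Differences between 2 members were tested over all 924 splits of 12 libraries. A planned difference with Atp6v1b2 was left out because that gene could not be matched, so that 9 tests remained. Correlations used 100000 permutations within groups, or all 720 pairings for 6 libraries.

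Alternatives were DESeq2 1.42.0, limma 3.58.1 (voom with quality weights), RLE factors, library totals, other filters, the replicate number as a block, only the libraries compared, and omission of libraries. The division of the controls by ENSMUSG00000086503 (above 100 CPM) was added after the data had been seen. The members and lists were chosen with earlier results of these data known. Of 113 symbols in 12 lists of collecting duct genes, proton pump subunits, carbonic anhydrases and cell type markers, 110 are in the rat gene table and 0 could be matched to an identifier, so no list was counted. The rule for named genes took all 8 members, and its other parts, which need symbols, named none. The series' design text gives 6 animals per group. The p-values measure the spread between these libraries. Chi-square per degree of freedom was at least 12.8 in all 45 within-group pairs, so no library was a repeat sequencing of another in its group. Pairs across groups were not compared, and repeat preparations from 1 animal could not be detected this way.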

Additional observations from a re-analysis of the deposited data

Results flagged for a closer look

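In 33 sets of 6 libraries (8 genes and 3 differences between genes, in 3 groups), 2 single libraries lay far from the rest by Dixon's criterion, where chance gives about 1 in 20 sets. Slc26a4 in treated library 5 was 63.91 CPM, and the other treated libraries were 46.8 to 52.1 CPM. Without that library the Treat versus DN log2 fold change of Slc26a4 was -0.028 (adjusted p = 0.938). Atp6v1g3 in control library 4 was 38.95 CPM, and the other controls were 57.7 to 64.5 CPM. The values without this library are given in the report.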

How the results depend on the processing

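Calls of Atp6v1b1 and Car2 in Treat versus DN held in 27 of 27 alternatives, those of Foxi1 and Car2 in Treat versus Ctrl in 28 of 28, and the 2 called differences of Slc4a9 minus Slc26a4 in 13 of 13. The calls of Slc4a1, Slc26a4, Atp6v1g3, Atp6v1b1, Atp6v0d2 and Car2 in DN versus Ctrl held in 27 of 28 each, the exception being the divided fit. The other settings all kept most of the controls with high ENSMUSG00000086503, so they could not separate DN from the division of the controls. For the changes below the cause was not tested, apart from the fewer libraries or other genes that a setting has by construction. Log2 fold changes are meant where no unit is given.
The divided fit called 986 genes between DN and Ctrl and 1862 between Treat and Ctrl, against 6202 and 8629 with all controls alike. In DN versus Ctrl it gave -0.015 for Slc4a1, -0.067 for Slc26a4, -0.16 for Slc4a9, 0.64 for Foxi1, 0.19 for Atp6v1g3, -0.24 for Atp6v1b1, 0.10 for Atp6v0d2 and -0.34 for Car2. In Treat versus Ctrl it gave 0.14 for Slc4a1, -0.025 for Slc26a4, 0.53 for Atp6v1g3, 0.21 for Atp6v1b1, 0.49 for Atp6v0d2 and 0.40 for Slc4a9.
The count of genes called in Treat versus DN, 268, was 799 with DESeq2, 775 with library totals (654 higher and 121 lower, against 103 and 165), 737 with voom, 593 without control library 4 and treated library 1, 119 with no filter, 116 with the 12 libraries compared and 117 with the replicate block. Library totals moved the median of all genes in Treat versus Ctrl by 0.102, to 0.125, with 5670 higher and 3127 lower, against 4415 and 4214.
In Treat versus DN, Atp6v1g3 passed the threshold with DESeq2 (0.34), library totals (0.47), voom (0.32) and without the 2 libraries named (0.31). Atp6v0d2 passed with DESeq2 (0.40), library totals (0.52) and without those 2 (0.44). Foxi1 did not pass with no filter (0.58), nor with the 12 libraries (0.59), where Slc4a9 (0.56) did not pass either.
In DN versus Ctrl, Foxi1 did not pass with no filter (0.41), voom (0.34) or without those 2 libraries (0.35), nor Slc4a9 with RLE factors (-0.30), no filter (-0.29) or the 12 libraries (-0.27). In Treat versus Ctrl, Slc4a1 passed with voom (-0.30) and without those 2 (-0.32), and Slc4a9 with library totals (0.36) and the 12 libraries (0.29). Values not called turned positive with library totals for Atp6v1g3 (0.083), Atp6v1b1 (0.078) and Atp6v0d2 (0.095), and with the 12 libraries for Atp6v0d2 (0.015).
Replicate numbers did not pair the libraries. Deviations of same-numbered libraries correlated at -0.189 to 0.0711 between DN and Ctrl, -0.122 to 0.185 between Treat and DN and -0.187 to 0.0419 between Treat and Ctrl, and a library was most like its own number in 0, 2 and 0 of 6 cases. With the replicate block Foxi1 was not called in Treat versus DN (0.56, adjusted p = 0.0773), and Slc4a9 was called in Treat versus Ctrl (0.25).
With 1 library left out, the genes called in Treat versus DN were 97 to 446. They were 446 without treated library 1, 119 and 160 without treated libraries 3 and 6, 152, 119, 97 and 125 without DN libraries 1, 2, 4 and 6, and 164 without control library 6. In DN versus Ctrl, Slc4a9 ranged over -0.39 to -0.24 (not called in 12 of 18 omissions) and Foxi1 over 0.35 to 0.47 (not called in 8). In Treat versus DN, Foxi1 ranged over 0.44 to 0.64, Slc4a9 over 0.49 to 0.64, Atp6v1g3 over 0.30 to 0.36, Atp6v0d2 over 0.33 to 0.46 and Slc26a4 over -0.028 to 0.10. In Treat versus Ctrl, Slc4a1 ranged over -0.33 to -0.17, Slc4a9 over 0.19 to 0.30 (called without DN library 2, DN library 5 or treated library 3), Atp6v1g3 over -0.12 to 0.0076, Atp6v1b1 over -0.070 to 0.0033 and Atp6v0d2 over -0.095 to 0.045. Slc4a1 minus Slc26a4 ranged over -0.050 to 0.18 in DN versus Ctrl and -0.00072 to 0.21 in Treat versus DN, and Slc4a1 minus Foxi1 over -0.48 to -0.28 in Treat versus DN.
Planned scaling to principal cell genes and a covariate on a gene given by symbol were not run, because symbols could not be matched to identifiers.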

Other observations

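The mean deviation of the 8 genes from their group means was most like that of ENSMUSG00000020534 among 11804 other genes with at least 5 CPM (Pearson r = 0.871, Spearman rho = 0.769; r = 0.703 without control library 4). ENSMUSG00000086503, the identifier that divides the controls, came second (r = 0.862, rho = 0.651; r = 0.504 without control library 4). The files give no names for these identifiers. Counts of the 8 genes together made up 0.0687% to 0.0769% of a library in Treat, 0.0597% to 0.0667% in DN and 0.0796% to 0.0939% in Ctrl.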
